A study of Mus musculus with 7 samples.

Results

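The genes described here are 34 genes of fatty acid uptake, mitochondrial fatty acid oxidation and their transcriptional regulators, followed in mouse plantaris muscle. Of these 34 genes 32 were measured, out of 18193 genes on the arrays. They were chosen by name, each gene by the probe sets that carry its symbol alone, and of these the probe set with the highest mean log2 signal over all arrays was used. Acsl1 was not analysed here, and neither was Cpt1b, whose probe set is shared with other gene symbols. All 7 samples came from Pax7-DTA mice (parental strains Pax7-CreER and Rosa26-DTA) aged 4 months, in which tamoxifen turns on diphtheria toxin wherever the Pax7 promoter is active, that is in satellite cells, the stem cells of muscle. The mice had received vehicle or tamoxifen, and the plantaris was taken after sham surgery or after 1 week of overload by synergist ablation, the removal of the muscles that share its work. There was 1 array for vehicle sham and 1 for tamoxifen sham (both male), 2 for vehicle overload (replicate 1 female, replicate 2 male) and 3 for tamoxifen overload (replicates 1 and 2 male, replicate 3 female). All mice carry both alleles, so no group shows muscle without the Cre and toxin genes, and no group shows tamoxifen without the toxin gene. The titles read as single mice while the design text speaks of pooled right and left muscles of 11 animals, so the number of animals behind an array is uncertain.

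Muscle takes up fatty acids that lipoprotein lipase frees from circulating lipoproteins, activates them to acyl-CoA and carries them into mitochondria on carnitine. Inside, repeated rounds of dehydrogenation, hydration, a further oxidation and thiolysis shorten the chain, and electron transfer flavoprotein passes the electrons to the respiratory chain. The nuclear receptors of the PPAR and ERR families and their coactivators of the PGC-1 family are known to drive the transcription of many of these enzymes in oxidative tissues. Malonyl-CoA, the inhibitor of the carnitine palmitoyltransferase 1 step, and the kinases of pyruvate dehydrogenase set the balance between fat and carbohydrate use.

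Many targets of these receptors are described as binding them at the sequence AGGTCA, alone or repeated, and the windows before the start sites of the genes were searched for it. RefSeq promoters (GRCm38.p6, 250 bases before to 50 bases after a start) were matched for 28 of the 34 genes, with 31 windows in all. Lpl, Crat, Decr1, Acaa2, Ppargc1b and Cpt1b had no entry. For 5 of the windows the 250 bases before the start are shown, 5′ to 3′ on the strand of the gene, with each AGGTCA or its reverse complement TGACCT in capitals. They are those of Cpt1a, the single gene of the set that rose with overload, of Acadvl and Echs1, which fell, of Ucp3, which has 2 matches, and the stretch between Hadha and Hadhb, which has none.
Cpt1a, chr19:3323051-3323300, plus strand: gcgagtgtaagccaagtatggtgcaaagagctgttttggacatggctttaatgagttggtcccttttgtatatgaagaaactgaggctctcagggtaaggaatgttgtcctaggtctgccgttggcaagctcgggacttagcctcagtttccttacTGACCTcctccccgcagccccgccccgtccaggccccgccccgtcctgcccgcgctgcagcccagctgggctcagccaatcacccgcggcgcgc
Acadvl, chr11:70015429-70015678, minus strand: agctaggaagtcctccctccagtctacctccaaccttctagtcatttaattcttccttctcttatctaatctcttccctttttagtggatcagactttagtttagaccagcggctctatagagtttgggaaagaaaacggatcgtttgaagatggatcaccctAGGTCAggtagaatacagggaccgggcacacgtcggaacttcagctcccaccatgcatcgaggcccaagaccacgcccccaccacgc
Echs1, chr7:140116422-140116671, minus strand: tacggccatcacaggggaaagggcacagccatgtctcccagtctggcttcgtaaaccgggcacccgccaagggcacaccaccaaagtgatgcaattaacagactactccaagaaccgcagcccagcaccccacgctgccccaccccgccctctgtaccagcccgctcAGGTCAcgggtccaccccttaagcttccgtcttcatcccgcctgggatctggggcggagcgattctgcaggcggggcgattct
Ucp3, chr7:100472741-100472990, plus strand: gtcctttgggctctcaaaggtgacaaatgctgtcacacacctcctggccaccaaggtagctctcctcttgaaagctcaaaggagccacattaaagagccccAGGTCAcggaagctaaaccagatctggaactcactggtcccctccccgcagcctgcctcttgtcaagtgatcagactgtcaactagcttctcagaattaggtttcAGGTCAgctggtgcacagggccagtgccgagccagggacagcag
Hadhb, chr5:30155003-30155252, plus strand: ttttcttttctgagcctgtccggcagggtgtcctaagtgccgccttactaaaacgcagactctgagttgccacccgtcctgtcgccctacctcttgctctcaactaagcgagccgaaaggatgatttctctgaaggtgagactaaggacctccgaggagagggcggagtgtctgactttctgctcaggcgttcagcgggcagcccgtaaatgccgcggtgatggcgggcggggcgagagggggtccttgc
Hadha and Hadhb, the subunits of one enzyme, lie head to head on chromosome 5, with starts at 30154980 (minus strand) and 30155253 (plus strand) and 272 bases between them, so the Hadhb sequence is also most of the Hadha promoter. The first base of the match lay 94 bases before the start of Cpt1a (on the opposite strand), 87 before that of Acadvl, 83 before that of Echs1, and 149 and 44 before that of Ucp3. Acadm and Cd36 had 1 match each, 249 and 228 bases before their starts. In all 6 of the 31 windows (19.4%) held AGGTCA on either strand, against 16.3% of all 32851 promoter windows of the same length, so the share is near that of promoters in general. The longer site TNAAGGTCA, which contains AGGTCA, was in 0 of 31 windows and in 1.28% of all. A repeat of AGGTCA with 1 base between, which also contains it, was in 0 windows and in 0.0396% of all. The pattern CTA, any 4 bases, TAG was in 0 windows and in 3.69% of all. It is a loose form of the site of the muscle factor MEF2, so its matches need not be MEF2 sites. These matches are letters within the windows and say nothing about binding.

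The deposited signals had been scaled so that the trimmed mean is the same on every array, and array medians ran from 88.2 to 128. Signal is given as log2(value + 1), and each difference as a log2 difference with its moderated standard error (±). The differences come from a fit with a term for sex, while the array levels are not adjusted for sex. Both sham arrays are male, so a fitted difference can depart from that between the array levels. A level of 5.77, the 95th percentile of 77 olfactory, vomeronasal and taste receptor genes, served as the background level, and all 32 genes lay above it on every array. The few arrays limit the precision of every value. Pax7 was at 6.55 (vehicle sham), 5.40 (tamoxifen sham), 8.10 and 8.45 (vehicle overload), and 5.88, 3.46 and 6.92 (tamoxifen overload). Its difference between tamoxifen and vehicle in overloaded muscle was -2.67 ± 0.81 (limma, adjusted p = 0.399), with all tamoxifen overload arrays below both vehicle overload arrays, but tamoxifen overload replicate 3 lay above the vehicle sham array. On the tamoxifen sham array and tamoxifen overload replicate 2 the signal of Pax7 was below the background level, so the size of this difference is uncertain. Of 16 genes that mark adult muscle fibres none was below background, and their mean level was 14.4 to 15.0 on every array, so the markers of the labelled tissue were present.

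Most of the fatty acid genes were lower in overloaded muscle. Taking both treatments together (5 overload against 2 sham arrays), 24 of the 32 genes fell and 1, Cpt1a, rose at an adjusted p under 0.05 (limma, Benjamini-Hochberg over 18193 genes), while 8.16% of all genes fell and 14.7% rose. The median difference of the set was -0.76, against 0.07 for all genes. For 28 genes all 5 overload arrays lay below both sham arrays, as was so for 18.3% of all genes, and for Cpt1a all lay above both, as for 23.1% of all genes. The arrays overlapped for Ppard, Ucp3 and Pdk4. By the sex-adjusted differences the genes that fell did so by 1.51-fold (Slc25a20) to 2.94-fold (Ppara). In whole muscle fewer cells of a type and less RNA per cell cannot be told apart.

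These calls rest on letting the variance depend on the intensity. With 1 variance prior for all genes 0 of 18193 genes passed, at 5234 genes with an unadjusted p under 0.05, and the 25 genes had adjusted p-values of 0.0575 to 0.170; the differences stayed as they were. Leaving out vehicle overload replicate 2, the only male array of its group, 12 genes were called (11 lower), and 13 lost the call, with adjusted p-values of 0.0512 to 0.197: Cd36, Cpt2, Slc25a20, Mlycd, Acadl, Acadm, Echs1, Hadh, Hadha, Hadhb, Decr1, Etfa and Etfb. Leaving out the vehicle sham array, 17 were called, and Cpt2, Slc25a20, Mlycd, Acadl, Hadh, Hadha, Etfa and Acot2 were not (0.0547 to 0.521). Without replicate 1 of vehicle overload or replicate 3 of tamoxifen overload, the female arrays, Slc25a20, Acadl and Hadh were not called (0.0596 to 0.0852), and without the tamoxifen sham array Hadha was not (0.0592). The other 11 genes, Ppara, Ppargc1a, Esrra, Lpl, Slc27a1, Cpt1a, Crat, Acadvl, Acaa2, Eci1 and Etfdh, remained called without each array in turn. Without vehicle overload replicate 2 the median difference of the set was -0.76, as with all arrays, and without the vehicle sham array it was -0.69. In both of these fits fewer of all genes were called as well, so the lost calls were not particular to the set. The median of all genes moved by more than 0.1 with another scaling, from 0.07 to -0.06 (quantile normalization) and -0.22 (arrays centred on their medians). The median of the set relative to that of all genes was -0.83, -0.61 and -0.83.

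**Figure D1:**
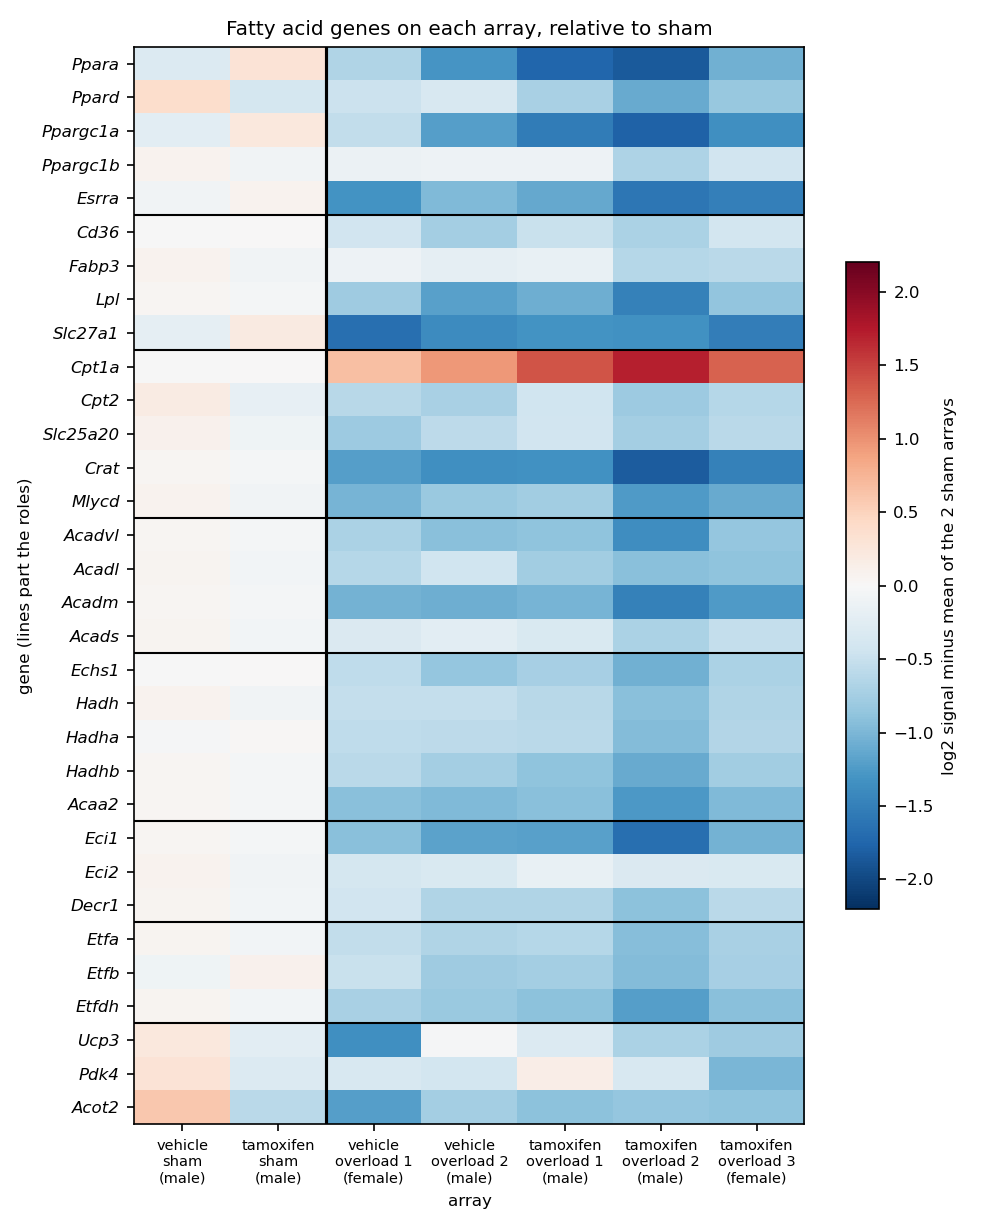
Log2 signal of the 32 measured genes (rows, grouped by role) on each of the 7 arrays (columns), minus the mean of both sham arrays of that gene; blue is lower and red higher than sham. Nearly all rows are blue on all 5 overload arrays, Cpt1a alone is red on all of them, and tamoxifen overload replicate 2 has the lowest overload level for 24 of the 32 genes.

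Of the 5 regulators 3 fell. Ppara encodes the fatty acid-activated receptor PPAR alpha, and its log2 signal was 9.10 and 9.71 in sham muscle, 8.75 and 8.10 in vehicle overload and 7.66, 7.56 and 8.35 in tamoxifen overload. Its overload arrays were all below its sham arrays, the female array of each overload group being the highest, and the difference was -1.56 ± 0.19, adjusted p = 0.00123. Ppargc1a, the coactivator PGC-1 alpha, was at 10.23 and 10.69 in sham muscle, 9.92 and 9.24 in vehicle overload and 8.92, 8.67 and 9.11 in tamoxifen overload. The highest overload array, vehicle replicate 1, was still below both sham arrays, and the difference was -1.42 ± 0.17, adjusted p = 0.00121. Esrra encodes the estrogen-related receptor ERR alpha, a partner of PGC-1 alpha, and was at 10.99 and 11.14 in sham muscle, 9.74 and 10.09 in vehicle overload and 9.94, 9.48 and 9.56 in tamoxifen overload. On the probe set used, sham and overload arrays were apart by 0.90 between the lowest sham and the highest overload array. The difference was -1.18 ± 0.18, adjusted p = 0.00295, while a dimmer probe set of the gene showed -0.05. Ppard, the receptor PPAR delta, did not pass the test. It was at 8.46 and 7.68 in sham muscle, 7.59 and 7.72 in vehicle overload and 7.36, 6.96 and 7.24 in tamoxifen overload, so that the tamoxifen sham array lay within the range of the vehicle overload arrays, and its difference was -0.65 ± 0.26, adjusted p = 0.12. Ppargc1b, the related coactivator PGC-1 beta, was at 10.82 and 10.65 in sham muscle, 10.61 and 10.62 in vehicle overload and 10.62, 10.06 and 10.31 in tamoxifen overload. Its overload arrays came within 0.04 of the tamoxifen sham array, and the difference was -0.26 ± 0.18, adjusted p = 0.372.

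Of the 4 genes of uptake, 3 fell. Lpl, the lipase that frees fatty acids at the vessel wall, was at 14.74 and 14.66 in sham muscle, 13.91 and 13.50 in vehicle overload and 13.62, 13.21 and 13.84 in tamoxifen overload. All overload arrays were lower than both sham arrays, with a difference of -1.24 ± 0.17, adjusted p = 0.00225. Slc27a1 encodes the fatty acid transport protein FATP1 and was at 9.95 and 10.36 in sham muscle, 8.50 and 8.78 in vehicle overload and 8.85, 8.83 and 8.63 in tamoxifen overload. Its overload arrays lay close together, over 1 log2 unit below both sham arrays, and the difference was -1.35 ± 0.16, adjusted p = 0.00111. Cd36, the fatty acid translocase of the plasma membrane, was at 13.29 and 13.32 in sham muscle, 12.88 and 12.56 in vehicle overload and 12.81, 12.62 and 12.90 in tamoxifen overload. The sham arrays nearly coincided and the overload arrays were all lower (-0.66 ± 0.14, adjusted p = 0.0135). Fabp3, the fatty acid binding protein of heart and muscle, was at 14.03 and 13.86 in sham muscle, 13.83 and 13.74 in vehicle overload and 13.78, 13.31 and 13.35 in tamoxifen overload. Its vehicle overload arrays lay just under the tamoxifen sham array, and the difference of -0.28 ± 0.19 did not pass the test (adjusted p = 0.343).

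The measured genes of the carnitine shuttle moved in both directions. Cpt1b was not analysed, so the change of the carnitine palmitoyltransferase 1 step as a whole is not shown. Cpt1a encodes the isoform of carnitine palmitoyltransferase 1 that predominates in liver, and it rose 2.37-fold. Its signal was 8.61 and 8.64 in sham muscle, 9.28 and 9.57 in vehicle overload and 10.00, 10.33 and 9.91 in tamoxifen overload. All tamoxifen overload arrays were above the vehicle overload arrays, as for 16.9% of all genes, and that difference did not pass the test (adjusted p = 0.391 by limma). Every overload array was above both sham arrays, and the difference of overload from sham for Cpt1a was 1.24 ± 0.17, adjusted p = 0.00187. Cpt2 and Slc25a20, which act after it as the inner membrane transferase and the carnitine-acylcarnitine translocase, fell instead. Cpt2 was at 11.53 and 11.17 in sham muscle, 10.74 and 10.64 in vehicle overload and 10.91, 10.55 and 10.72 in tamoxifen overload (-0.66 ± 0.15, adjusted p = 0.0187). Slc25a20 was at 12.42 and 12.24 in sham muscle, 11.52 and 11.75 in vehicle overload and 11.91, 11.58 and 11.73 in tamoxifen overload (-0.60 ± 0.15, adjusted p = 0.0266). In both genes the overload arrays of the treatments overlapped each other and none reached a sham array. Crat, the carnitine acetyltransferase that exports surplus acetyl groups, showed the largest fall among the enzymes of the set. It was at 12.60 and 12.50 in sham muscle, 11.33 and 11.20 in vehicle overload and 11.21, 10.71 and 11.06 in tamoxifen overload (-1.46 ± 0.17, adjusted p = 0.0011), a 2.76-fold difference, with more than 1 log2 unit between any sham and any overload array. Mlycd, the decarboxylase that removes malonyl-CoA, was at 10.86 and 10.69 in sham muscle, 9.76 and 9.97 in vehicle overload and 10.02, 9.52 and 9.67 in tamoxifen overload. It fell by 0.91 ± 0.18 (adjusted p = 0.00913), and its lowest overload array was tamoxifen replicate 2.

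**Figure D2:**
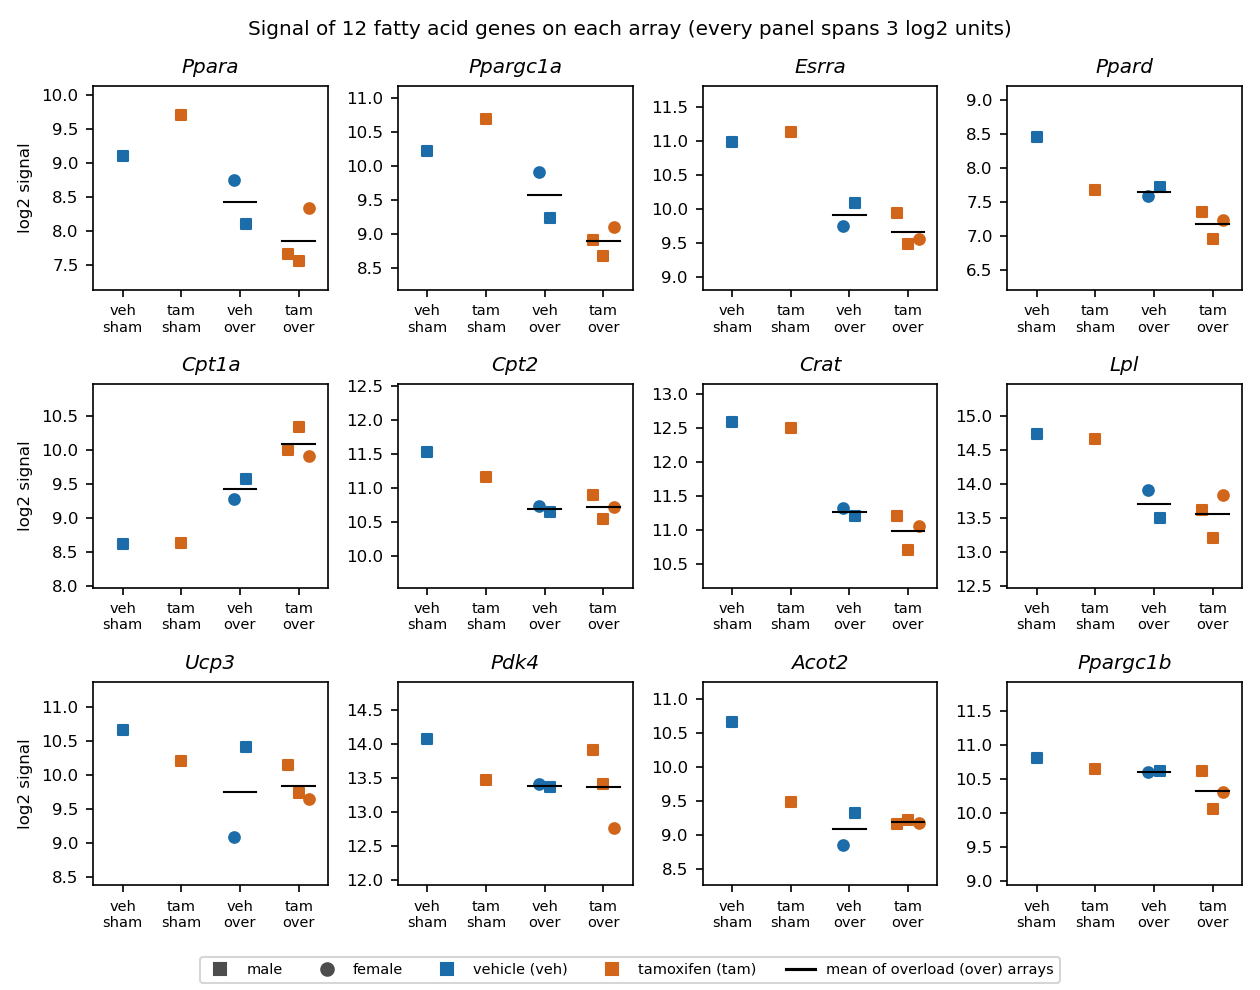
Log2 signal of 12 of the genes on each array by group (veh, vehicle; tam, tamoxifen; over, overload); squares are male, circles female, and bars the mean of the overload arrays of a group. Cpt1a rises from 8.61 and 8.64 in sham muscle to 9.28 or more in overload, the overload arrays of Ppara, Ppargc1a, Esrra, Crat and Lpl lie below their sham arrays, and those of Ucp3, Pdk4 and Ppard overlap theirs.

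Among the acyl-CoA dehydrogenases, which open each round of oxidation, the 3 for longer chains fell. Acadvl (very long chains) was at 13.40 and 13.31 in sham muscle, 12.67 and 12.43 in vehicle overload and 12.47, 12.00 and 12.51 in tamoxifen overload (-1.03 ± 0.17, adjusted p = 0.00462). Acadm (medium chains) was at 14.53 and 14.45 in sham muscle, 13.46 and 13.41 in vehicle overload and 13.46, 13.01 and 13.25 in tamoxifen overload (-1.17 ± 0.18, adjusted p = 0.00324). In both, tamoxifen overload replicate 2 was lowest and the other 4 overload arrays lay within 0.3 of each other. Acadl (long chains) was at 13.90 and 13.77 in sham muscle, 13.20 and 13.41 in vehicle overload and 13.08, 12.92 and 12.96 in tamoxifen overload, a smaller difference of -0.64 ± 0.15, adjusted p = 0.0161. Acads (short chains) was at 10.94 and 10.83 in sham muscle, 10.56 and 10.65 in vehicle overload and 10.55, 10.18 and 10.36 in tamoxifen overload. All its overload arrays were below its sham arrays, but the difference of -0.38 ± 0.16 did not pass the test (adjusted p = 0.121).

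All 5 genes of the hydration, further oxidation and thiolysis steps fell. Hadha and Hadhb, the subunits of the trifunctional protein that handles long chains, are the pair whose shared promoter stretch is printed above. Hadha was at 12.45 and 12.51 in sham muscle, 11.93 and 11.91 in vehicle overload and 11.89, 11.53 and 11.84 in tamoxifen overload (-0.68 ± 0.15, adjusted p = 0.0165). Hadhb was at 14.11 and 14.02 in sham muscle, 13.48 and 13.31 in vehicle overload and 13.17, 12.96 and 13.29 in tamoxifen overload (-0.88 ± 0.15, adjusted p = 0.00503). In both subunits all tamoxifen overload arrays were below both vehicle overload arrays, as for 12.6% of all genes. Neither difference between the treatments passed the test (adjusted p = 0.734 for Hadha and 0.611 for Hadhb by limma). Echs1, the short-chain enoyl-CoA hydratase, was at 12.55 and 12.57 in sham muscle, 11.99 and 11.72 in vehicle overload and 11.83, 11.50 and 11.86 in tamoxifen overload (-0.86 ± 0.15, adjusted p = 0.00532). Hadh, the dehydrogenase for shorter hydroxyacyl chains, was at 14.14 and 13.99 in sham muscle, 13.54 and 13.54 in vehicle overload and 13.46, 13.15 and 13.40 in tamoxifen overload (-0.65 ± 0.16, adjusted p = 0.0228). Neither had an overload array within 0.4 of a sham array. Acaa2, the thiolase that releases acetyl-CoA, was at 12.50 and 12.42 in sham muscle, 11.55 and 11.49 in vehicle overload and 11.54, 11.20 and 11.49 in tamoxifen overload. It fell 2.05-fold (-1.03 ± 0.15, adjusted p = 0.00253).

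Of the 3 auxiliary enzymes, which reposition double bonds of unsaturated chains, 2 fell, and all had every overload array below both sham arrays. Eci1, an enoyl-CoA isomerase, was at 12.55 and 12.45 in sham muscle, 11.58 and 11.33 in vehicle overload and 11.30, 10.83 and 11.46 in tamoxifen overload and fell 2.48-fold (-1.31 ± 0.17, adjusted p = 0.00154). Eci2, the other isomerase of the list, was at 11.54 and 11.38 in sham muscle, 11.07 and 11.13 in vehicle overload and 11.29, 11.14 and 11.12 in tamoxifen overload, and its difference of -0.28 ± 0.13 did not pass the test (adjusted p = 0.17). Whether the isomerases differ from each other was not tested. Decr1, the dienoyl-CoA reductase, was at 12.31 and 12.20 in sham muscle, 11.83 and 11.60 in vehicle overload and 11.60, 11.35 and 11.66 in tamoxifen overload (-0.72 ± 0.14, adjusted p = 0.00885). Its overload arrays lay between 11.35 and 11.83, all under the sham arrays.

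All 3 genes of electron transfer fell. Etfa and Etfb encode the subunits of electron transfer flavoprotein, and Etfdh the oxidoreductase that hands its electrons to ubiquinone. Etfa was at 13.39 and 13.26 in sham muscle, 12.79 and 12.67 in vehicle overload and 12.70, 12.38 and 12.62 in tamoxifen overload (-0.72 ± 0.15, adjusted p = 0.0123). Etfb was at 12.98 and 13.16 in sham muscle, 12.58 and 12.29 in vehicle overload and 12.32, 12.11 and 12.34 in tamoxifen overload (-0.81 ± 0.14, adjusted p = 0.00582). Etfdh was at 12.96 and 12.83 in sham muscle, 12.18 and 12.08 in vehicle overload and 12.00, 11.69 and 11.97 in tamoxifen overload (-0.93 ± 0.15, adjusted p = 0.00376). In each of the 3, the lowest overload array was tamoxifen replicate 2, the highest was vehicle replicate 1, and no overload array reached a sham array.

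Of the 3 genes known as PPAR-responsive side routes and brakes 1 was called, and all 3 differences were below 0. Pdk4, the kinase that shuts off pyruvate dehydrogenase when fat is burned, was at 14.06 and 13.47 in sham muscle, 13.41 and 13.36 in vehicle overload and 13.91, 13.41 and 12.77 in tamoxifen overload. Tamoxifen overload replicates 1 and 3 were the highest and lowest overload arrays, on either side of the tamoxifen sham array, and the difference was -0.19 ± 0.25, adjusted p = 0.647. Ucp3, the uncoupling protein of muscle mitochondria, was at 10.66 and 10.21 in sham muscle, 9.09 and 10.42 in vehicle overload and 10.14, 9.74 and 9.65 in tamoxifen overload. Vehicle overload replicates 1 and 2 stood far apart, the male one above the tamoxifen sham array (-0.33 ± 0.25, adjusted p = 0.395). Acot2, a mitochondrial acyl-CoA thioesterase, was at 10.66 and 9.48 in sham muscle, 8.86 and 9.32 in vehicle overload and 9.17, 9.22 and 9.18 in tamoxifen overload. It was called lower (-0.84 ± 0.17, adjusted p = 0.0101), but here the vehicle sham array stood 1.18 above the tamoxifen sham array, and without that vehicle sham array the difference was -0.26 (adjusted p = 0.521).

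For 17 of the 32 genes more than 1 probe set lay above background. The differences of overload from sham had the same sign in all probe sets of 16 of these genes. For Ppara they ran from -1.75 to -1.51 over 3 probe sets, for Ppargc1a from -1.67 to -1.24 over 5, and for Cpt1a from 1.24 to 2.03 over 3. For Esrra they ran from -1.18 to -0.05 over 2, the dimmer probe set being nearly flat. Hadh differed in sign, from -0.85 to 0.28. Averaging all probe sets per gene moved Esrra to -0.61 and Cd36 to -1.27, both still called, and Hadhb to -0.45 and Hadh to -0.41, neither called; Cpt2 also lost its call there. Levels of different probe sets are not compared.

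Within each treatment nearly all differences lay below 0, for 31 of the 32 genes with vehicle and 30 with tamoxifen. Of all 18193 genes 8243 lay below 0 with vehicle and 8682 with tamoxifen. With tamoxifen (3 overload arrays, 1 sham) 19 of 32 genes fell and Cpt1a rose, with a median of -0.77, against 4.9% and 9.98% of all genes. With vehicle (2 overload arrays, 1 sham) 9 fell and Cpt1a rose, with a median of -0.81, against 2.44% and 6.35% of all genes. Lpl, Slc27a1, Crat, Acadvl, Acadm, Acaa2, Eci1 and Etfdh, 8 in all, fell in both, Acot2 with vehicle alone, and 11 with tamoxifen alone. Fewer calls with vehicle do not show a smaller response. The differences of Ppara were -1.03 ± 0.27 with vehicle (adjusted p = 0.0523) and -2.09 ± 0.24 with tamoxifen (adjusted p = 0.00233). Those of Ppargc1a were -0.88 ± 0.24 (adjusted p = 0.0626) and -1.95 ± 0.22 (adjusted p = 0.00212). In Acot2 they were -1.47 ± 0.24 (adjusted p = 0.0109) and -0.22 ± 0.22 (adjusted p = 0.564). Lpl by contrast had -1.24 ± 0.25 and -1.24 ± 0.23, and Acaa2 -1.03 ± 0.21 and -1.04 ± 0.19. Cpt1a rose by 0.95 ± 0.24 with vehicle (adjusted p = 0.0465) and by 1.54 ± 0.22 with tamoxifen (adjusted p = 0.00413). The vehicle call of Cpt1a held in 4 of 15 alternatives (0.64 to 1.40, adjusted p = 0.0183 to 0.343 by limma). It was lost without the sex term, on male arrays alone, with quantile normalization, median centring (0.64), a pseudocount of 16 or averaged probe sets, without the trend, in an ordinary linear model, and without vehicle overload replicate 1 or 2 or replicate 3 of tamoxifen overload. Its tamoxifen call held in 13 of 15, all but those without the trend or without moderation. Of the vehicle falls, that of Acot2 held in 13 of 15 alternatives and those of Crat, Eci1 and Slc27a1 in 12, and the others in 5 to 8. None of these alternatives could leave out the single vehicle sham array, nor those with tamoxifen its sham array. The tallies thus do not show how far a call rests on that array. Acot2 was at 10.66 on the vehicle sham array and at 9.48 on the tamoxifen sham array. The vehicle count depended on single arrays and was lower when either vehicle overload array was left out. Leaving out replicates 1, 2 and 3 of tamoxifen overload gave 22, 19 and 4, beside 2499, 1762 and 1022 of all genes. With all arrays 1599 of all genes were called with vehicle. Without vehicle overload replicate 1 or replicate 2 the median of the set with vehicle was -0.77 or -0.82, and fewer of all genes were called as well. The tamoxifen count was 14 to 22 without each array in turn.

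**Figure D3:**
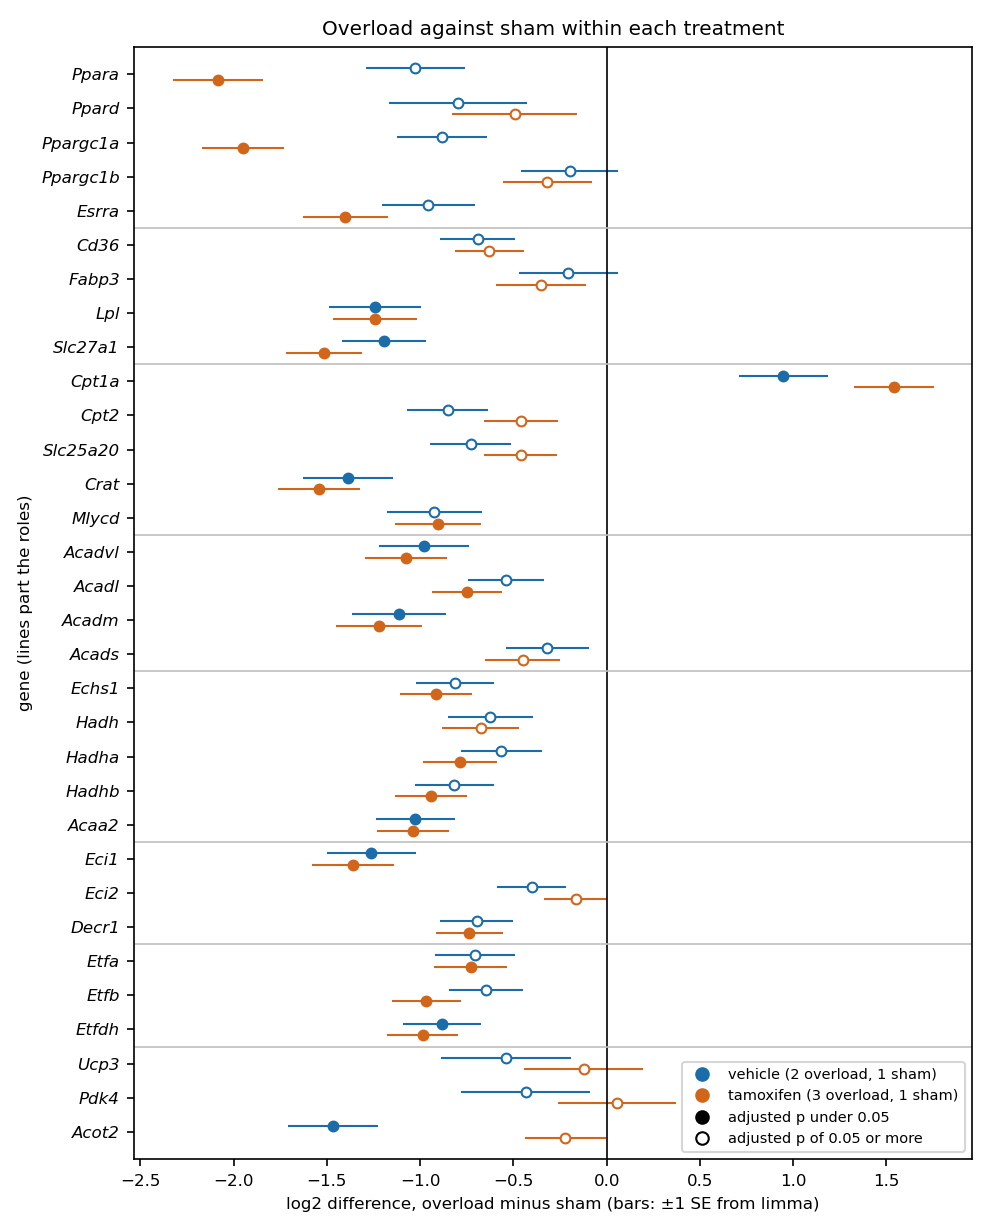
Log2 difference of overload from sham for each of the 32 genes (rows) with vehicle (blue) and tamoxifen (orange); bars are 1 standard error to either side from limma, and filled points have an adjusted p under 0.05. The points of both treatments lie left of 0 for nearly all genes and right of it for Cpt1a, and they lie farthest apart for Acot2, Ppara and Ppargc1a.

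The design's main question is whether muscle meant to lack satellite cells responds differently. In overloaded muscle 0 of the 32 genes were called different between tamoxifen (3 arrays) and vehicle (2 arrays). Of all genes 0% were called in either direction, Pax7 included, so the lack of calls does not show equal levels. At an unadjusted p under 0.05 there were 4 of the set and 1932 of all genes. The median of the set was -0.15, against 0.03 for all genes, with 25 of 32 genes below 0, against 8584 of all 18193 genes. Ppargc1a was lower with tamoxifen by 0.60 ± 0.17 (limma, adjusted p = 0.392; 95% interval -0.99 to -0.21). Cpt1a was higher by 0.61 ± 0.17 (limma, adjusted p = 0.391; 0.23 to 1.00). The other pair at an unadjusted p under 0.05 was Ppara (-0.45 ± 0.19, adjusted p = 0.465 by limma) and Acadl (-0.34 ± 0.15, adjusted p = 0.468 by limma). All 3 tamoxifen overload arrays lay below both vehicle overload arrays for Ppard, Ppargc1a, Acadl, Acads, Hadh, Hadha, Hadhb and Etfdh, 8 of the 32, as did 12.6% of all genes, and above both for Cpt1a, as did 16.9%. The 95% intervals of the 32 genes reached from -1.07 to 1.00 at their outermost and a median of 0.38 to either side of the estimate. Without tamoxifen overload replicate 2 the median of the set was -0.07.

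Tamoxifen overload replicate 2 stood apart from the other overload arrays. It was the lowest overload array for 24 of the 32 genes and the highest for Cpt1a. It also had the highest median signal of all arrays, the highest 3′ to 5′ signal ratios of Gapdh (0.906) and actin, the highest mean level of 10 macrophage markers (11.18) and the lowest of 16 adult fibre markers (14.37). Without it the same 25 genes were called for overload against sham, and 18 for tamoxifen alone, Mlycd and Etfa having lost the call (adjusted p = 0.0511 to 0.0536).

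The interaction, the difference between the overload response with tamoxifen and that with vehicle, passed for 0 of the 32 genes and for 0% of all genes in either direction, with 3 genes of the set and 1021 of all at an unadjusted p under 0.05. These 3 were Acot2 (1.25 ± 0.31, adjusted p = 0.717 by limma), Ppargc1a (-1.07 ± 0.31, adjusted p = 0.745 by limma) and Ppara (-1.06 ± 0.34, adjusted p = 0.782 by limma). Each depends on 1 sham array per treatment, and the 95% intervals reached a median of 0.69 to either side. The sham arrays themselves differed by more than 0.5 for 4 genes, as did 34.6% of all genes. Tamoxifen sham was lower for Acot2 (-1.18), Ppard (-0.78) and Pdk4 (-0.59) and higher for Ppara (0.61), with no replicates and so no test. For 23 of the 32 genes tamoxifen sham was the lower array, with a median of -0.10, against 0.03 for all genes.

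Both overload groups held 1 female array, so sex could be compared there. Between females and males 0 of the 32 genes were called different (limma), against 0.0165% of all genes lower and 0.033% higher in females. With so few female arrays this does not show equal levels. At an unadjusted p under 0.05 there were 4 genes of the set and 911 of all. Ppara was higher on the female arrays in both treatments, by 0.70 ± 0.19 (adjusted p = 0.822 by limma), as were Ppargc1a (0.47 ± 0.17, adjusted p = 0.951 by limma) and Lpl (0.42 ± 0.17, adjusted p = 0.98 by limma). Ucp3 was lower in females by 0.73 ± 0.25 (adjusted p = 0.951 by limma). Among male arrays alone the median difference of the set for overload against sham was -0.77. The adipocyte markers, 8 measured of 11, had a median sex difference of 1.12, and their mean level was 9.06 and 9.78 on the female overload arrays against 8.13 to 8.45 on the male ones and 9.01 and 9.23 in sham muscle. With overload 3 of the 8 fell and none rose, beside 8.16% and 14.7% of all genes, and the count was lower without the tamoxifen sham array. The part of these markers in the levels of Lpl, Cd36 and the other genes was not tested.

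Other lists of lipid and oxidative genes, also chosen with results of these data known, were set beside the set. Over all genes 8.16% fell and 14.7% rose. Of 15 genes of the tricarboxylic acid cycle 13 fell and none rose (median -0.71), and of 19 of the respiratory chain 15 fell and none rose (median -0.60). Both counts depended on single arrays. Without vehicle overload replicate 2 they were 2 and 1, without the vehicle sham array 7 and 2, without the tamoxifen sham array 9 and 4, without vehicle overload replicate 1 9 and 4, and without tamoxifen overload replicate 3 9 and 3. Of 30 other mitochondrial fatty acid genes 10 fell and 4 rose (median -0.22), 14 calls that became 6 without vehicle overload replicate 2 and 7 without the vehicle sham array. Among them Acss1 (-1.59), which activates acetate, Ivd (-1.45), a dehydrogenase of leucine breakdown, and Acacb (-1.21), which makes malonyl-CoA at mitochondria, fell, while Fabp5 (1.84), a fatty acid binding protein of skin, fat and macrophages, rose. The list thus reaches beyond enzymes of mitochondrial fatty acid oxidation, and the rise of Fabp5 is not that of such an enzyme. Of 14 peroxisomal genes 4 fell and 1 rose (median -0.32): Abcd2 (-1.44), Ech1 (-1.07) and Phyh (-1.01) were among those lower, and Decr2 (1.41) was higher, with 3 calls left without the vehicle sham array.

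Among genes of stored fat and its regulation calls went in both directions, beside 8.16% of all genes called lower and 14.7% called higher. The rises in the storage and synthesis lists were few, near the share of all genes. Of 18 genes of triglyceride storage and lipolysis 8 fell and 2 rose (median -0.65). The lipid droplet proteins Plin4 (-1.95) and Plin5 (-1.48) and the phosphatidate phosphatase Lpin1 (-1.74) fell. Angptl4 (2.43), the secreted inhibitor of lipoprotein lipase, rose. Of 11 genes of fatty acid synthesis 4 fell and 2 rose (median -0.16), with Mlxipl (-1.42), Me1 (-1.29) and Scd1 (-0.94) lower and Scd2 (1.25) higher. Ketone body use had 3 of 4 genes lower (median -0.90): Bdh1 (-1.38), Acat1 (-0.99) and the monocarboxylate carrier Slc16a1 (-0.82), with 1 call left without vehicle overload replicate 2.

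Of 20 transcription partners and energy sensors 6 fell and none rose (median -0.44). They include the retinoid X receptors Rxrg (-1.50) and Rxra (-1.17), which pair with the PPARs, the AMP-activated kinase subunit Prkaa2 (-1.27) and the factor Klf15 (-1.38). Of 11 genes of the pyruvate dehydrogenase complex, its kinases and its supply 7 fell and 1 rose (median -0.61). The kinase Pdk2 (-1.31), the subunit Pdha1 (-0.96) and the phosphatase Pdp1 (-0.77) fell, and the kinase Pdk3 (2.24) rose, beside Pdk4 with no call. These 8 calls became 3 without vehicle overload replicate 2, 4 without the vehicle sham array and 5 without the tamoxifen sham array.

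**Figure D4:**
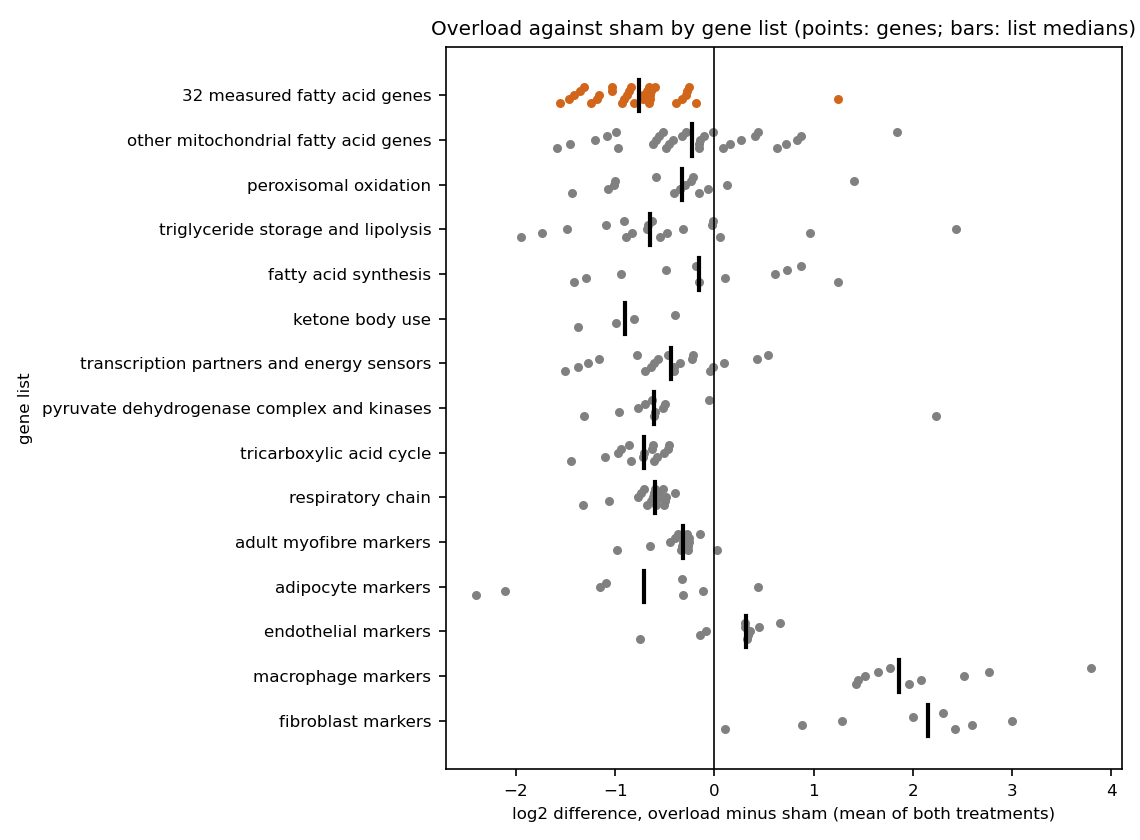
Log2 difference of overload from sham (mean of both treatments) for every measured gene of each list (points) and the list's median (bars), with the fatty acid genes in orange. The median of the 32 fatty acid genes is -0.76, near those of the tricarboxylic acid cycle (-0.71) and respiratory chain (-0.60) and below that of the adult fibre markers (-0.32), while the macrophage (1.86) and fibroblast (2.15) markers lie to the right of 0.

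The mix of transcripts in the muscle moved with overload as well, in the macrophage and fibroblast markers above all. Over all genes 8.16% were called lower and 14.7% higher, and the few calls among adult fibre and endothelial markers were near these shares. All 10 macrophage markers rose (median 1.86); their mean level was 8.08 and 8.98 on the sham arrays, 10.36 and 10.54 in vehicle overload and 10.57 to 11.18 in tamoxifen overload. Of 8 fibroblast markers 7 rose (median 2.15), from mean levels of 11.16 and 11.65 in sham muscle to 13.06 or more in overload. Of the 16 adult fibre markers 2 fell, Pygm (-0.98) and Ryr1 (-0.65), with a median of -0.32, and without vehicle overload replicate 2 none did; their mean level was 15.00 and 14.95 in sham muscle and 14.37 to 14.78 in overload. None of these markers was below background on all arrays. Set against the fibre markers, 27 of the 32 fatty acid genes had a more negative difference than the median marker and 10 than the lowest (Pygm). Of 10 endothelial markers, from cells that also take up fatty acids, 1 rose and 1 fell (median 0.32), neither without vehicle overload replicate 2 or without either sham array. Of 8 slow fibre markers 5 rose and 1 fell (median 1.32). The part of these shifts in the fall of the fatty acid genes was not tested.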

How the data were processed

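Arrays were of the type Affymetrix mouse430_2.0, 1 for each of 7 plantaris RNA samples (1 µg total RNA), per the labels. The submitters' processing notes name Partek with neither version nor role, and no source used here says how probe sets were summarised. The deposited signals are linear intensities; on every array their mean is 500 once 2% at each end is trimmed, so the authors had scaled whole arrays. Such scaling cannot show a change of total RNA per muscle.

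The intensities were taken as log2(value + 1). Of 45101 probe sets, 34945 are annotated with 1 gene symbol, and each of 18193 genes was represented by its brightest probe set (highest mean over the arrays). A linear model with terms for group and sex was fitted over all 7 arrays with limma 3.58.1 in R 4.3.3 (files read with the data.table package, version 1.17.8). Variances were shrunk towards a trend on intensity (2 residual and 5.95 prior degrees of freedom). Each sham group has 1 array, whose spread was taken to equal that of the overload groups. Tests were two-sided, with Benjamini-Hochberg adjustment over 18193 genes and a threshold of 0.05. As it is uncertain that arrays came from separate animals, p-values measure the spread between these samples, which may be technical. The procedure was also run on simulated data whose noise followed the fitted intensity trend. That run assumes the trend and so cannot show whether it holds. Promoter windows are those of RefSeq (GRCm38.p6). Figures were drawn with Python 3.11.15, pandas 2.3.3, numpy 2.4.6 and matplotlib 3.10.9.

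The genes of the set and all lists were chosen with earlier results of these data known. All genes of the set are named; of each other list up to 4 genes with the largest difference among the called genes above background, and Pax7 as the check of the treatment. The alternatives tried were dropping the sex term, keeping only male arrays, quantile normalization, median centring, a pseudocount of 16, a filter on dim genes, averaging all probe sets per gene, moderation without the trend, an ordinary linear model, keeping only overload arrays, and leaving out each array in turn.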

Additional observations from a re-analysis of the deposited data

How the results depend on the processing

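For overload against sham over both treatments, 25 genes of the set were called and 22 to 28 were called without a sex term, on male arrays alone, with quantile normalization, median centring, a pseudocount of 16, a filter on dim genes or all probe sets averaged per gene. With variances without the intensity trend and in an ordinary linear model 0 genes were called in overload against sham, with vehicle and with tamoxifen alike, and 0 of all genes; for both treatments together 5234 and 4142 of all genes had an unadjusted p under 0.05. The counts without each array in turn were 12 to 25 for both treatments together, 1 to 22 with vehicle and 14 to 22 with tamoxifen. With vehicle (10 called) the count was 4 on male arrays alone, 6 with quantile normalization and 18 with the filter on dim genes, which adjusts over fewer genes. Median centring moved the median difference of the set to -1.05 over both treatments, -1.11 with vehicle, -1.04 with tamoxifen and -0.30 for tamoxifen against vehicle in overload; quantile normalization moved that with vehicle to -0.65. Of all genes 1485 fell and 2678 rose, against 1306 and 2034 with quantile normalization and 2710 and 1740 with median centring. In either direction 4163 of all genes were called in the fit used throughout, 3199 with probe sets averaged and 4922 without a sex term. For tamoxifen against vehicle, the interaction and sex no gene of the set was called in any alternative run. No called gene of the set changed its sign in overload against sham in any of the 16 alternatives; Ppard and Pdk4, not called, did. The cause of these changes was not tested. Leaving out a female array is nearly the same fit as male arrays alone. Leaving out a sham array leaves no value for the interaction or for overload against sham within its own treatment. No paired analysis was possible because the labels give the groups no shared replicate numbers. The few arrays and the single sham array per treatment limit every comparison.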
